A study of Mus musculus with 22 samples.

Results

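The genes described here are 10 genes by which epithelial and mesenchymal cell states are usually told apart, taken by symbol from 55141 gene rows of the gastruloid count tables and 55055 of the mES and endoderm tables. They are the epithelial adhesion genes Cdh1 and Epcam, the cadherin Cdh2, the mesenchymal genes Vim and Fn1, and the transcription factor genes Snai1, Snai2, Zeb1, Zeb2 and Twist1. All 10 were found in every table. RNA-seq counts came from 22 libraries of mouse embryonic stem (mES) cells and their derivatives, in 10 groups, with wild-type (wt) cells compared with cells labelled Hox-/- (BADC in the sample titles), in which no Hox cluster is functional according to the series title. Each genotype had 2 libraries of mES cells, whose medium held LIF at 100 ng/ml, CHIR99021 (which blocks the kinase GSK-3) at 3 µM and an inhibitor of MEK at 1 µM. Endoderm cultures, 3 libraries per genotype, were adherent cells given 100 ng/ml Activin A with 3 µM CHIR99021 and collected at 120 h. Gastruloids are clumps of stem cells that go through some steps of early embryonic patterning in culture. They were treated with Activin A (both genotypes) or with Chiron (wild type alone), and each kind gave 2 libraries at 96 h and 2 at 120 h. Gastruloid doses and the number of clones behind each genotype are not given in the labels, so genotype and clone cannot be told apart. Endoderm cultures and gastruloids are labelled as mixed cells.

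E-cadherin, the product of Cdh1, and the adhesion molecule encoded by Epcam hold epithelial cells together, whereas N-cadherin, the product of Cdh2, joins mesenchymal and neural cells. When cells leave an epithelium, as at the primitive streak during gastrulation, transcription factors of the Snail, Zeb and Twist families repress Cdh1 and other epithelial genes, and cells often exchange E-cadherin for N-cadherin and accumulate the intermediate filament vimentin and the matrix protein fibronectin. Snail and Zeb proteins bind E-box sequences of the type CACCTG, read on the other strand as CAGGTG.

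Total counts ran from 9108085 to 28819301 per library. In the gastruloids every 96 h library was deeper (at least 14953662 counts) than every 120 h library (at most 11930416 counts), so time and depth go together. Chi-square over degrees of freedom between replicates was 1.40 to 11.3, above what counting error alone gives, and highest between the Chiron libraries at 96 h. The labels do not say that replicates were separate cultures, so the p-values below measure only the spread between these libraries, which may be technical. As a check of the labels, the 39 Hox genes summed to 30.4 to 35.7 CPM (counts per 1000000 counts of a library) in wild-type and 0.448 to 1.34 CPM in Hox-/- mES cells. In endoderm the sums were 828 to 877 against 22.5 to 28.6 CPM, and in Activin A gastruloids 625 to 660.5 against 102 to 104 CPM at 96 h and 1167 to 1190 against 63.8 to 69.5 CPM at 120 h. All 6 pluripotency markers examined were above 1 CPM in mES cells (sums of 4092 to 4409 CPM), and all 8 endoderm markers in wild-type endoderm (225 to 235 CPM) and in wild-type Activin A gastruloids.

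Promoter sequences, the 250 bases before an annotated start in the RefSeq annotation of GRCm38.p6, were at hand for 5 of the genes (Epcam, Snai1, Zeb2, Twist1 and Vim). Epcam and Snai1 are shown because they carry the E-box and because, in Activin A gastruloids at 120 h, Epcam was lower and Snai1 higher in Hox-/- than in wild type. At 96 h Epcam was not called, and no link between the genes was tested. Capitals mark CACCTG or CAGGTG. Both lie on the plus strand, the Epcam window at chr17:87635729-87635978 and the Snai1 window at chr2:167537945-167538194.
Epcam: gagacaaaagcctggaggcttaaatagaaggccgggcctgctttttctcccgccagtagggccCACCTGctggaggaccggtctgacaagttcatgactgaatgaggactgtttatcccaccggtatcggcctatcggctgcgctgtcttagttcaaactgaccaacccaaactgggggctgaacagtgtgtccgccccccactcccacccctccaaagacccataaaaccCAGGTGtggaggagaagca
Snai1: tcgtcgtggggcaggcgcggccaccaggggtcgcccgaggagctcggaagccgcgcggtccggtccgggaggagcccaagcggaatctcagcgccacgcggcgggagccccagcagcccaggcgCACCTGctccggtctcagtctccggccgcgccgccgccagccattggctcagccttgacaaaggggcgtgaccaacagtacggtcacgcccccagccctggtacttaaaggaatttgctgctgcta
The matches began 187 and 19 bases before the start of Epcam and 126 bases before the start of Snai1. These letters were not in the windows of Twist1, Vim or Zeb2. Of 32851 promoter windows of this length, 17.2% held CACCTG or CAGGTG on either strand. A match is a description of the sequence and not evidence of binding.

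Cdh1 (ENSMUSG00000000303, chr8:106603351-106670246, mm10) was highest in mES cells, where its level was 594 and 596 CPM in wild type and 624 and 633 CPM in Hox-/-. Wild-type endoderm cultures held 276, 280.2 and 270.5 CPM, and Hox-/- endoderm cultures 177, 178 and 178 CPM. Activin A gastruloids at 96 h held 408 and 431 CPM in wild type and 302 and 319.7 CPM in Hox-/-. A day later the genotypes stood far apart. Wild-type Activin A gastruloids at 120 h held 155 and 161 CPM, and Hox-/- ones 9.48 and 10.1 CPM, the lowest level of any group. Chiron gastruloids held 87.2 and 101 CPM at 96 h and 25.4 and 24.1 CPM at 120 h. The 10 groups could be ordered without any overlap of libraries between neighbours, from Hox-/- mES cells through wild-type mES cells, Activin A wild type at 96 h, Activin A Hox-/- at 96 h, wild-type endoderm, Hox-/- endoderm, Activin A wild type at 120 h, Chiron at 96 h and Chiron at 120 h to Activin A Hox-/- at 120 h. The top and bottom groups differed 64.2-fold in mean CPM. This order and those of the genes below rest on CPM scaled by total counts alone. Small steps may depend on that scaling, such as the 1.12-fold from Hox-/- endoderm to wild-type Activin A gastruloids at 120 h. Gastruloids were also deposited apart from mES cells and endoderm cultures, so kind of culture and count table cannot be told apart.

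**Figure D1:**
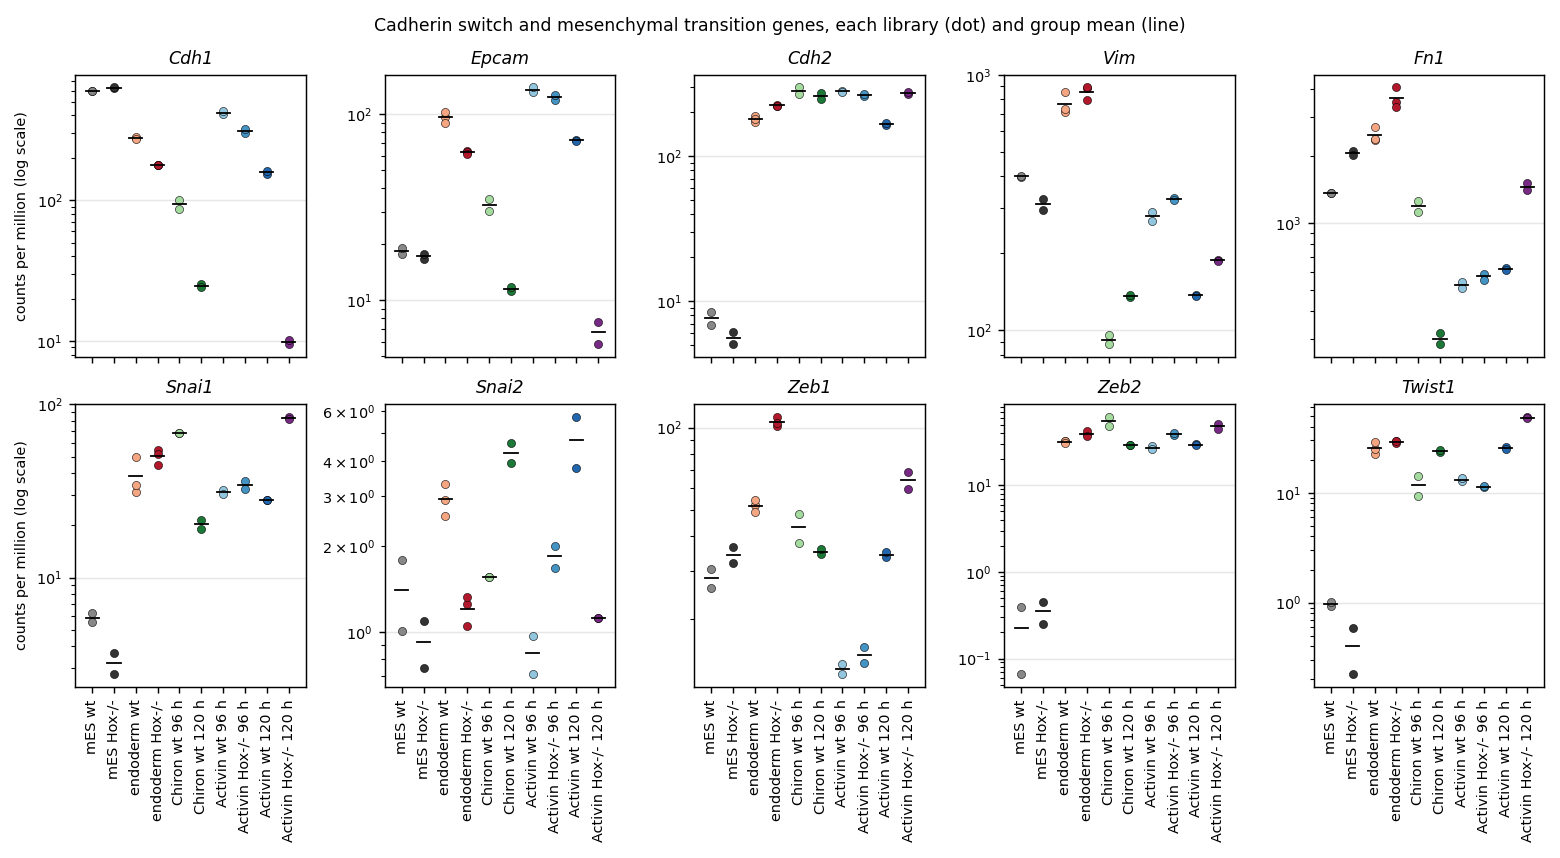
Level of each of the 10 genes in CPM (log scale, its range set per gene) in the 22 libraries, with dots for libraries and lines for group means (n = 2, or 3 in endoderm). Cdh1 and Epcam have their lowest dots in the Hox-/- Activin A gastruloids at 120 h, the group in which Snai1 and Twist1 are highest, whereas Cdh2, Snai1, Zeb2 and Twist1 are lowest in mES cells.

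Epcam (ENSMUSG00000045394, chr17:87635979-87651129) was low in mES cells, at 17.7 and 19.2 CPM in wild type and 16.6 and 17.8 CPM in Hox-/-, which overlapped. Endoderm cultures held 97.0, 102 and 89.9 CPM in wild type and 63.7, 62.6 and 61.2 CPM in Hox-/-. Its highest values were in Activin A gastruloids at 96 h, with 131 and 139.6 CPM in wild type and 119.8 and 127 CPM in Hox-/-. Epcam thus differed from Cdh1 in its level in mES cells but had its lowest level in the same group. At 120 h, wild-type Activin A gastruloids held 72.5 and 72.1 CPM and Hox-/- ones 7.67 and 5.80 CPM. Chiron gastruloids held 30.3 and 35.05 CPM at 96 h and 11.2 and 11.8 CPM at 120 h. In the order of group means only the neighbouring mES groups overlapped.

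Cdh2 (ENSMUSG00000024304) was low in mES cells, at 6.84 and 8.39 CPM in wild type and 6.13 and 5.04 CPM in Hox-/-. In every other group it lay between 164 and 298 CPM. Wild-type endoderm cultures held 188, 173 and 181 CPM and Hox-/- ones 223, 224 and 223 CPM. The highest means were in Chiron gastruloids at 96 h (298 and 266 CPM) and wild-type Activin A gastruloids at 96 h (283 and 279 CPM), which overlapped. Hox-/- Activin A gastruloids held 261 and 267 CPM at 96 h and 266 and 275 CPM at 120 h, and Chiron gastruloids 273 and 247 CPM at 120 h. These 3 groups overlapped one another, and all 3 overlapped Chiron gastruloids at 96 h. They stood apart from wild-type Activin A gastruloids at 96 h above them and from Hox-/- endoderm cultures below them. Wild-type Activin A gastruloids at 120 h stood lowest among the differentiated groups, at 164 and 170.0 CPM.

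Levels of different genes were compared in FPKM, which accounts for transcript length. The ratio of Cdh2 to Cdh1 FPKM was 0.0138 ± 0.00265 (SD, n = 2) in wild-type and 0.00968 ± 0.00173 (n = 2) in Hox-/- mES cells. It was 0.703 ± 0.0351 (n = 3) in wild-type and 1.36 ± 0.00686 (n = 3) in Hox-/- endoderm cultures, so that Cdh1 was the higher of the pair in the former and Cdh2 in the latter, in every library. In Activin A gastruloids the ratio went from 0.698 ± 0.0274 at 96 h to 1.13 ± 0.00209 at 120 h in wild type, and from 0.875 ± 0.0155 to 29.6 ± 0.445 in Hox-/- (n = 2 each). In Chiron gastruloids it was 3.23 ± 0.647 at 96 h and 11.4 ± 0.232 at 120 h (n = 2 each). The share of Cdh1 in the FPKM of both cadherins was 98.6% and 99.04% in the mES groups and 3.27% in Hox-/- Activin A gastruloids at 120 h. These ratios are given as a description, without a test. In bulk RNA, fewer cells expressing Cdh1 and less Cdh1 RNA per cell cannot be told apart, and the same holds for every gene below.

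**Figure D2:**
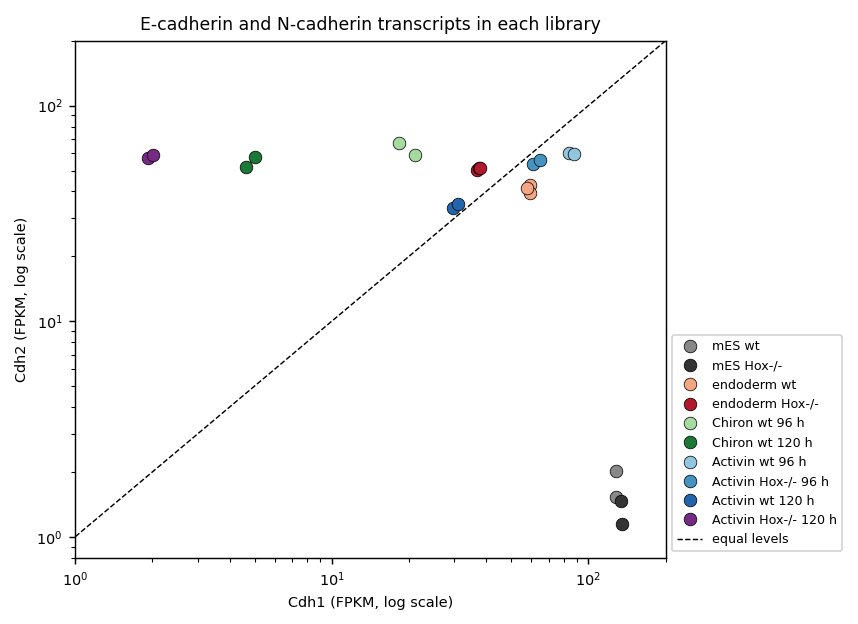
Cdh2 against Cdh1 in FPKM (both axes log scale), 1 dot per library, with the dashed line where the levels are equal. The mES libraries lie at the lower right, with Cdh1 at 128 to 135 FPKM and Cdh2 at 1.14 to 2.01 FPKM. The Hox-/- Activin A gastruloids at 120 h lie at the far left, with Cdh1 at 1.92 and 2.01 FPKM. Outside mES cells Cdh2 lies between 33.7 FPKM (wild-type Activin A at 120 h) and 67.4 FPKM (Chiron at 96 h).

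Vim (ENSMUSG00000026728, chr2:13573927-13582826), which encodes vimentin, was already abundant in mES cells, at 399 and 400.4 CPM in wild type and 325 and 296 CPM in Hox-/-. Endoderm cultures held the most, with 713, 731 and 852 CPM in wild type and 889, 797 and 892 CPM in Hox-/-, which overlapped. Every gastruloid library was below these, whichever agent was used. Activin A gastruloids held 268 and 289 CPM (wild type) and 329 and 324 CPM (Hox-/-) at 96 h. At 120 h they held 137 and 136 CPM and 188 and 187 CPM. Chiron gastruloids held 87.9 and 95.4 CPM at 96 h, the lowest level of any group, and 135 and 137 CPM at 120 h, which overlapped wild-type Activin A gastruloids of that time.

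Fn1 (ENSMUSG00000026193, chr1:71585520-71653200), which encodes fibronectin, spanned 12.1-fold between group means. It was at 1366 and 1358 CPM in wild-type and 2102 and 2034 CPM in Hox-/- mES cells. Endoderm cultures held 2373, 2400.1 and 2701 CPM in wild type and 3505, 4082 and 3325 CPM in Hox-/-. The genotypes did not overlap in either culture. Activin A gastruloids held 544 and 511 CPM (wild type) and 591 and 556 CPM (Hox-/-) at 96 h, then 629 and 615 CPM and 1508 and 1406 CPM at 120 h. Chiron gastruloids held 1255 and 1121 CPM at 96 h and 318 and 284 CPM at 120 h, the lowest of any group. No neighbouring groups overlapped in the order of Fn1 means. By FPKM, Vim and not Fn1 was the higher of the pair in both mES wild-type libraries (182 and 182 against 149 and 148 FPKM), and Fn1 was the higher in Chiron gastruloids at 96 h (132 and 117 against 38.7 and 42.2 FPKM).

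Snai1 (ENSMUSG00000042821, chr2:167538195-167542814), the gene of the Snail repressor of Cdh1, was at 5.51 and 6.22 CPM in wild-type and 3.66 and 2.77 CPM in Hox-/- mES cells. Endoderm cultures held 31.2, 34.0 and 49.9 CPM in wild type and 54.6, 44.5 and 51.5 CPM in Hox-/-, with wild-type replicate 3 inside the Hox-/- range. Activin A gastruloids at 96 h held 31.9 and 30.5 CPM (wild type) and 36.3 and 32.4 CPM (Hox-/-). The widest gap between genotypes was at 120 h. Wild-type Activin A gastruloids then held 27.9 and 28.1 CPM and Hox-/- ones 84.6 and 82.1 CPM, the highest level of any group. Chiron gastruloids held 68.5 and 68.7 CPM at 96 h and 19.2 and 21.5 CPM at 120 h, the second highest and the lowest means among the differentiated groups.

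Snai2 (ENSMUSG00000022676, chr16:14705852-14709385), which encodes Slug, the relative of Snail known from neural crest and mesenchyme, was low throughout, with 10 to 55 counts per library. Its highest means were in wild-type Activin A gastruloids at 120 h (3.78 and 5.71 CPM) and Chiron gastruloids at 120 h (4.61 and 3.92 CPM), which overlapped, followed by wild-type endoderm (3.33, 2.90 and 2.55 CPM). Hox-/- endoderm held 1.25, 1.05 and 1.32 CPM. Hox-/- Activin A gastruloids held 1.68 and 2.01 CPM at 96 h and 1.12 and 1.12 CPM at 120 h, and wild-type ones 0.711 and 0.969 CPM at 96 h. Snai2 was thus the single transcription factor gene of these 5 that was lower in Hox-/- than in wild-type Activin A gastruloids at 120 h. In mES cells the genotypes overlapped, at 1.79 and 1.01 CPM (wild type) and 0.747 and 1.09 CPM (Hox-/-), and Chiron gastruloids at 96 h held 1.56 and 1.56 CPM.

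Zeb1 (ENSMUSG00000024238) had the highest mean in Hox-/- endoderm, with 102, 109 and 104 CPM against 52.0, 49.3 and 54.1 CPM in wild-type endoderm. Hox-/- Activin A gastruloids at 120 h came next, at 68.8 and 59.6 CPM, against 33.5 and 34.9 CPM in wild type. Its lowest values were in Activin A gastruloids at 96 h, at 13.6 and 12.6 CPM in wild type and 13.7 and 15.7 CPM in Hox-/-. Zeb1 was the transcription factor gene with the most FPKM in mES cells, where it held 46.4% (wild type) and 66.5% (Hox-/-) of the summed FPKM of the 5. The mES libraries held 25.9 and 30.4 CPM in wild type and 31.8 and 36.6 CPM in Hox-/-. Chiron gastruloids held 48.3 and 37.9 CPM at 96 h and 34.4 and 35.9 CPM at 120 h.

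Zeb2 (ENSMUSG00000026872, chr2:44983632-45117395) was close to undetected in mES cells, with 1 and 5 counts in the wild-type libraries and 6 and 3 in the Hox-/- ones, and too low there for a test of genotype. Endoderm cultures held 32.5, 32.8 and 30.6 CPM in wild type and 38.8, 42.4 and 37.1 CPM in Hox-/-. Activin A gastruloids at 96 h held 28.2 and 26.1 CPM (wild type) and 38.0 and 39.9 CPM (Hox-/-). At 120 h they held 29.7 and 29.1 CPM and 51.5 and 44.1 CPM, so that Hox-/- was the higher genotype at both times. Chiron gastruloids had the highest mean of all groups at 96 h (61.5 and 48.8 CPM, overlapping Hox-/- Activin A at 120 h) and held 29.2 and 29.1 CPM at 120 h, overlapping wild-type Activin A. The antisense gene Zeb2os overlaps Zeb2 and reached at most 4.82 CPM, and whether the counting used strand is not given in the sources used here, so the Zeb2 counts are uncertain by that much. Outside mES cells Zeb2os had at most 14.2% of the level of Zeb2 in a library, and in 1 mES library each had 1 count. The genes overlapping Zeb1 and Fn1 reached at most 1.06 and 1.87 CPM.

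Twist1 (ENSMUSG00000035799, chr12:33957671-33959829), which encodes a factor of head mesenchyme and somite derivatives, had 14 and 13 counts in the wild-type and 3 and 7 counts in the Hox-/- mES libraries. Endoderm cultures held 22.5, 25.1 and 28.8 CPM in wild type and 29.8, 28.2 and 29.4 CPM in Hox-/-, which overlapped. Activin A gastruloids held 12.8 and 13.5 CPM (wild type) and 11.3 and 11.4 CPM (Hox-/-) at 96 h. At 120 h the order of the genotypes was the opposite, with 26.2 and 24.9 CPM in wild type and 49.0 and 47.8 CPM in Hox-/-, again the highest level of any group. Chiron gastruloids held 14.2 and 9.30 CPM at 96 h and 23.5 and 24.7 CPM at 120 h. Summed over the 5 transcription factor genes, FPKM was 8.33 to 10.7 in the mES libraries and 94.5 to 99.3 in the Hox-/- Activin A gastruloids at 120 h, where Snai1 made up 50.9%. Wild-type Activin A gastruloids at 120 h summed to 41.2 to 41.6 FPKM and Chiron gastruloids of that time to 36.0 to 38.1 FPKM, with Twist1 the highest of the 5 in the latter.

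Endoderm cultures had a higher level of nearly all of these genes than mES cells, and a lower level of Cdh1. This was not so of every differentiated group, since by mean CPM Vim was lower in each wild-type gastruloid group than in wild-type mES cells, and so was Fn1. In wild type, 9 of 10 were called higher in endoderm cultures than in mES cells and 1 lower, against 41.6% of all 16251 genes tested called higher and 38.3% lower, 79.9% together (edgeR's quasi-likelihood test, Benjamini-Hochberg adjusted p under 0.05, as throughout). Their median log2 fold change was 1.59, and that of all genes 0.07. Cdh1 fell by 1.23 (log2, SE 0.04, adjusted p = 7.1e-16) and Cdh2 rose by 4.46 (SE 0.08, adjusted p = 6.8e-20). Epcam rose by 2.27 (SE 0.08), in the direction opposite to Cdh1. Among the transcription factor genes Snai1 rose by 2.60, Twist1 by 4.59 and Zeb1 by 0.77 (0.47 with offsets for GC content and transcript length). Zeb2, at a few counts in mES cells, passed the filter only through the endoderm libraries, where it is high, and had a fitted change of 7.05 (SE 0.23). Snai2 rose by 0.91 (adjusted p = 0.0067), a call lost without wild-type mES replicate 2 (0.57, adjusted p = 0.13) and a value of 1.42 without replicate 1. Vim rose by 0.82 and Fn1 by 0.75, but the Fn1 value was 0.23 with those offsets.

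In Hox-/- cells 8 of 10 were called higher in endoderm cultures than in mES cells and 1 lower, against 42.7% of all genes higher and 37.9% lower (80.6% together), with a median of 1.66 (all genes 0.10). Cdh1 fell by 1.91, Cdh2 rose by 5.23, Epcam by 1.78, Snai1 by 3.87 and Zeb1 by 1.54. Snai2 was not called (0.32, SE 0.36, adjusted p = 0.42). Fn1 rose by 0.73, or by 0.14 with the GC and length offsets. The difference between the genotypes in this change was itself called for 7 of the 10, 5 positive and 2 negative, against 11.6% and 12.5% of all genes (24.1% together). It was more negative in Hox-/- for Cdh1 (-0.68, SE 0.06, adjusted p = 1.2e-07) and Epcam (-0.49, SE 0.11) and more positive for Cdh2 (0.77, SE 0.15), Zeb1 (0.77, SE 0.11), Snai1 (1.27, SE 0.35), Vim (0.57, SE 0.10) and Twist1 (1.499, SE 0.51). The Twist1 call (adjusted p = 0.038) rests on mES libraries with 3 to 14 counts and was lost without any of wild-type mES replicates 1 and 2, Hox-/- mES replicate 1, wild-type endoderm replicate 2 or Hox-/- endoderm replicate 1 (adjusted p of 0.051 to 0.29), and its value was 2.29 without Hox-/- mES replicate 2. The Snai1 call was lost without Hox-/- mES replicate 2 (1.09, adjusted p = 0.073).

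In mES cells Hox-/- libraries had more Fn1 and Zeb1 and less Vim and Snai1 than wild type, while neither Cdh1 nor Epcam was called. Of the 9 genes tested, 2 were called higher and 2 lower in Hox-/-, against 12.4% and 10.8% of all 13631 genes (23.2% together), and their median log2 fold change was -0.37 (all genes 0.00). Fn1 was higher (0.60, SE 0.04, adjusted p = 1.3e-15) and Vim lower (-0.37, SE 0.05, adjusted p = 1.2e-07). Snai1 was lower (-0.85, SE 0.21, adjusted p = 0.0022) and Zeb1 higher (0.28, SE 0.09, adjusted p = 0.020). Cdh1 (0.08, SE 0.04), Epcam (-0.10, SE 0.11) and Cdh2 (-0.43, SE 0.17, adjusted p = 0.063) were not called. The Zeb1 call was lost without wild-type replicate 1 (0.17, adjusted p = 0.41) or Hox-/- replicate 2 (0.18, adjusted p = 0.17), and Snai1 and Zeb1 were not called by DESeq2 (adjusted p = 0.083 and 0.22).

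In endoderm cultures Hox-/- cells had less Cdh1 and Epcam and more Cdh2, Zeb1, Zeb2 and Fn1 than wild type. In all, 5 of 10 genes were called higher and 3 lower, against 23.1% of all 14975 genes in each direction (46.2% together) (median 0.26, all genes 0.00). Cdh1 was lower by a log2 fold change of -0.63 (SE 0.04, adjusted p = 4.7e-08) and Epcam by -0.62 (SE 0.06, adjusted p = 7.3e-07), while Cdh2 was higher by 0.32 (SE 0.05). Zeb1 had the largest rise of the 10, 1.03 (SE 0.06, adjusted p = 3.9e-09), and Zeb2 (0.31, SE 0.07) and Fn1 (0.55, SE 0.07) also rose. Snai2 fell by 1.26 (SE 0.23, adjusted p = 0.00046). Snai1 was called higher (0.39, SE 0.13, adjusted p = 0.026) although its libraries overlapped. That call was lost without wild-type replicate 1 or 2 or Hox-/- replicate 1 or 3 (adjusted p of 0.071 to 0.14) and by DESeq2 (adjusted p = 0.20), and the value was 0.63 without wild-type replicate 3. Twist1 (0.20, SE 0.09, adjusted p = 0.075) and Vim (0.18, SE 0.07, adjusted p = 0.056) were not called, and both were called without wild-type replicate 3 (0.30 and 0.26).

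Markers of other cell states differed between the endoderm cultures as well. The 8 endoderm markers summed to 225 to 235 CPM in wild type, against 87.2 to 94.6 CPM in Hox-/-, where 7 of 8 reached 1 CPM, and the 6 pluripotency markers to 537 to 617 against 178 to 198 CPM. The 6 neural markers summed to 6.00 to 7.15 CPM in wild type, against 38.0 to 47.6 CPM in Hox-/-, with Olig2 and Neurog2 at 0 in both. These sums rest on few genes, since only 2 of the 6 reached a mean of 1 CPM in each genotype. Only 2 were tested, and both were called higher. Sox1 was at the floor of 3 counts in wild type and Pax6 in Hox-/-. The 5 cardiac markers summed to 64.6 to 86.5 CPM in wild type, against 116 to 126 CPM in Hox-/-, although 1 was called higher and 2 lower. Paraxial mesoderm markers summed to 63.8 to 70.5 against 47.9 to 49.8 CPM, and endothelial and blood markers to 18.5 to 19.9 against 8.13 to 10.1 CPM. Primitive streak and caudal sums overlapped (429 to 490 against 431 to 440 CPM). The part of all these markers in the changes of Cdh1, Epcam and Cdh2 was not tested.

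**Figure D3:**
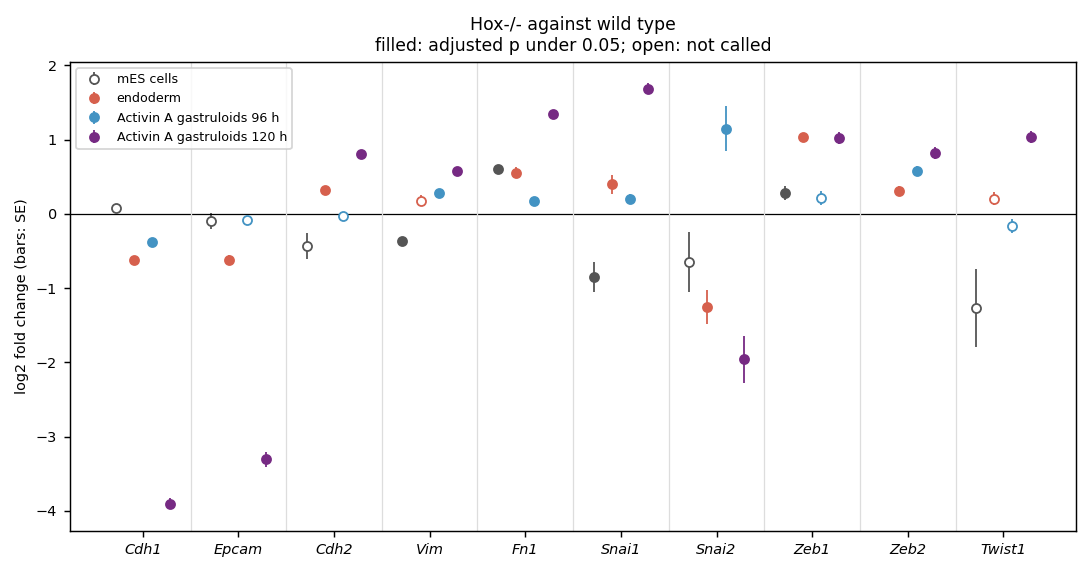
Log2 fold change of each gene, Hox-/- against wild type, in mES cells, endoderm cultures and Activin A gastruloids at 96 h and 120 h, with bars for the standard error. Filled dots passed an adjusted p under 0.05, and the largest changes are the drops of Cdh1 (-3.90) and Epcam (-3.30) at 120 h.

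In Activin A gastruloids at 96 h, Hox-/- libraries had less Cdh1 and more Zeb2, Snai2, Vim and Fn1. Of the 10 genes, 5 were called higher and 1 lower, against 22.2% and 16.7% of all 16831 genes (38.9% together) (median 0.19, all genes 0.03). Of all calls 57.0% were higher, or 42.5% when libraries were scaled by total counts alone. Cdh1 was lower (-0.38, SE 0.04, adjusted p = 5.2e-12). Zeb2 (0.57, SE 0.07, adjusted p = 8.1e-10), Vim (0.28, SE 0.04, adjusted p = 2.7e-08) and Fn1 (0.17, SE 0.04, adjusted p = 0.00048) were higher, and so was Snai2 (1.15, SE 0.30, adjusted p = 0.0021), at 16 to 36 counts per library. The Fn1 difference was 0.06 in both fits on log FPKM, where it was not called. The Snai2 call was lost in the limma fit on log2(FPKM + 1) (0.43, adjusted p = 0.13). Snai1 was called higher (0.20, SE 0.06, adjusted p = 0.0093), a call lost without wild-type replicate 2 (adjusted p = 0.11) or Hox-/- replicate 1 (0.11, adjusted p = 0.34) and under 6 other alternatives. With the GC and length offsets Snai1 was at 0.33 and Fn1 at 0.27. Cdh2 (-0.03), Epcam (-0.09), Zeb1 (0.21) and Twist1 (-0.16) were not called. Epcam was called lower (-0.12 to -0.14) with total counts alone, without a filter, with a minimum of 10 counts in every library, in a fit of the compared groups alone and without Hox-/- replicate 2 (-0.13, adjusted p = 0.048), and was at 0.03 with the offsets.

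At 120 h every one of the 10 genes was called between the genotypes, against 50.4% of all genes. At 120 h Hox-/- Activin A gastruloids had less Cdh1, Epcam and Snai2 and more of the other 7 genes. Of all genes 24.9% were called higher and 25.5% lower (50.4% together). The median log2 fold change of the 10 was 0.81 (all genes -0.02). Of all calls 49.4% were higher, or 34.6% with scaling by total counts alone, which moved the median of all genes by -0.11. Cdh1 was 14.9-fold lower (-3.90, SE 0.08, adjusted p = 2.0e-39) and Epcam 9.88-fold lower (-3.30, SE 0.10, adjusted p = 1.1e-31). Cdh2 was 1.75-fold higher (0.81, SE 0.04, adjusted p = 1.6e-21). The level of Cdh1 thus differed between the genotypes by far more than that of Cdh2.

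Of the mesenchymal genes, Fn1 was 2.53-fold higher (1.34, SE 0.04, adjusted p = 1.6e-31) and Vim 1.48-fold higher (0.57, SE 0.05, adjusted p = 2.0e-14) in Hox-/- Activin A gastruloids at 120 h. Snai1 was 3.22-fold higher (1.69, SE 0.07, adjusted p = 2.1e-25), the largest increase among the 10. Twist1 (2.05-fold, 1.03, SE 0.08), Zeb1 (2.03-fold, 1.02, SE 0.08) and Zeb2 (1.76-fold, 0.82, SE 0.08) were also higher. Snai2 was 3.89-fold lower (-1.96, SE 0.32, adjusted p = 1.0e-06), on 12 to 52 counts per library. On the log2(FPKM + 1) scale, which understates changes of low genes, the Snai2 values were smaller, -0.99 here and -0.60 between genotypes in endoderm. All 10 were called in the same direction under each alternative tried, including without each library in turn.

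Other cell-state markers moved with these genes at 120 h. The 6 pluripotency markers summed to 84.7 to 87.2 CPM in wild type, against 32.5 to 36.0 CPM in Hox-/-, with 4 called lower and 1 higher (median -1.64). Of 5 cardiac markers 3 were lower and 1 higher (median -2.30), with sums of 13.4 to 18.1 CPM in wild type, against 14.8 to 18.02 CPM in Hox-/-, which overlapped. The 8 endoderm markers summed to 424 to 437 CPM in wild type, against 166 to 172 CPM in Hox-/-, where Cxcr4, which mesoderm also expresses, made up 114 to 117 CPM. Foxa2 (-4.92, SE 0.14) and Sox17 (-3.80, SE 0.13) were lower. The 7 paraxial mesoderm markers, all above 1 CPM in both genotypes, summed to 498 to 502 CPM in wild type, against 803 to 810 CPM in Hox-/-, the 6 neural markers to 57.0 to 59.2 against 16.2 to 18.05 CPM, and the 7 endothelial and blood markers to 30.4 to 38.3 against 56.1 to 56.5 CPM, with Hba-x and Hbb-y at 0. At 96 h the endoderm markers summed to 406 to 459 CPM in wild type, against 27.8 to 31.4 CPM in Hox-/-. The pluripotency markers at 96 h summed to 975 to 994 CPM in wild type, against 907 to 923 CPM in Hox-/-. The part of any of these markers in the differences of Cdh1 and Epcam between the genotypes, at either time, was not tested.

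Between 96 h and 120 h, Cdh1 and Epcam fell in all 3 kinds of gastruloid. In wild-type Activin A gastruloids Cdh1 fell by 1.48 (SE 0.04, adjusted p = 2.5e-33) and Epcam by 0.98 (SE 0.05). In Hox-/- Activin A gastruloids Cdh1 was 32.1-fold lower at 120 h (-5.004, SE 0.07, adjusted p = 2.6e-47) and Epcam 18.3-fold lower (-4.20, SE 0.09). In Chiron gastruloids the changes were -2.04 (SE 0.08, adjusted p = 2.9e-16) and -1.62 (SE 0.10). Of the 10 genes, 4 were called higher and 5 lower with time in wild-type Activin A gastruloids (37.2% and 37.8% of all genes, 74.9% together), 5 higher and 3 lower in Hox-/- ones (34.9% and 37.6%, 72.4% together) and 3 higher and 7 lower in Chiron ones (28.5% and 33.2% of 17305 genes, 61.7% together). The medians were -0.09, 0.15 and -0.70, against 0.00, -0.01 and -0.04 over all genes. In each of these comparisons depth changed with time. The pluripotency markers summed to 975 to 994 CPM at 96 h and 84.7 to 87.2 CPM at 120 h in wild-type Activin A gastruloids, to 907 to 923 and 32.5 to 36.0 CPM in Hox-/- ones, and to 179.7 to 231 and 175 to 189 CPM in Chiron ones. All 4 primitive streak and caudal markers were lower at 120 h in each, their sums going from 2618 to 2727 CPM down to 398 CPM in wild-type Activin A, from 3215 to 3242 CPM down to 298 to 305 CPM in Hox-/- Activin A and from 908 to 1049 CPM down to 275 to 309 CPM in Chiron gastruloids. Paraxial mesoderm sums were 121 to 130 CPM at 96 h and 498 to 502 CPM at 120 h in wild-type Activin A gastruloids. In Hox-/- ones they were 146 to 160 and 803 to 810 CPM, and in Chiron ones 614 to 736 and 845 to 895 CPM. Endoderm sums were 406 to 459 CPM at 96 h and 424 to 437 CPM at 120 h in wild-type Activin A gastruloids. In Hox-/- ones they were 27.8 to 31.4 and 166 to 172 CPM, and in Chiron ones 122 to 161 and 71.2 to 71.4 CPM. The part of these markers in the falls of Cdh1 and Epcam was not tested.

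**Figure D4:**
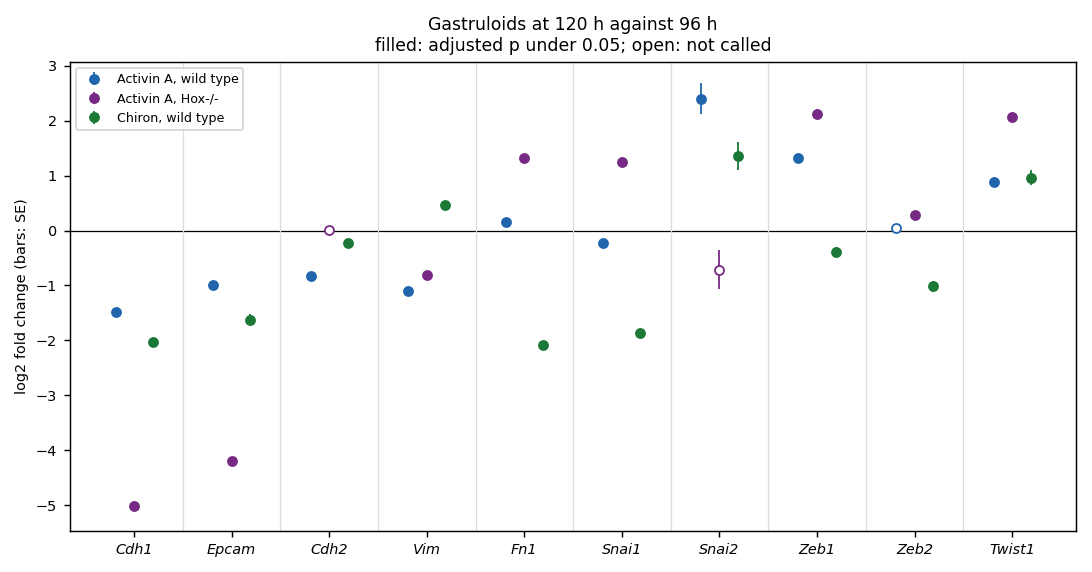
Log2 fold change of each gene from 96 h to 120 h in wild-type Activin A, Hox-/- Activin A and wild-type Chiron gastruloids, with bars for the standard error and filled dots for an adjusted p under 0.05. Cdh1 and Epcam are below 0 in all 3, most in Hox-/- (-5.004 and -4.20), whereas Snai1 and Fn1 are above 0 in Hox-/- Activin A gastruloids and below 0 in Chiron gastruloids.

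The other genes took different courses in the 3 kinds of gastruloid. Cdh2 fell by 0.82 (SE 0.04) in wild-type Activin A gastruloids and was not called in Hox-/- ones (0.02, SE 0.04, adjusted p = 0.72). Snai1 rose by 1.25 (SE 0.06) in Hox-/- Activin A gastruloids, fell by 0.23 (SE 0.08) in wild-type ones and fell by 1.87 (SE 0.08) in Chiron ones. The wild-type Activin A call for Snai1 was lost with total counts alone (-0.16, adjusted p = 0.069), and the value was -0.38 with the offsets. Fn1 rose by 1.33 (SE 0.04) in Hox-/- Activin A gastruloids (0.72 with the GC and length offsets) and fell by 2.08 (SE 0.06) in Chiron ones. In wild-type Activin A gastruloids its small rise of 0.16 (0.098 without a filter) turned to -0.28 with those offsets, so that its direction there depends on the processing. Twist1 rose in all 3, by 0.88, 2.07 and 0.96. Snai2 rose by 2.40 (SE 0.28) in wild-type Activin A and 1.35 (SE 0.25) in Chiron gastruloids and was not called in Hox-/- ones (-0.71, SE 0.35, adjusted p = 0.064). On log2(FPKM + 1) those rises of Snai2 were 1.13 and 0.79. Zeb1 rose by 1.31 and 2.12 in wild-type and Hox-/- Activin A gastruloids and fell by 0.39 in Chiron ones, a call lost without Chiron 96 h replicate 1 (-0.18). Neither limma fit on log FPKM called Zeb1 in Chiron gastruloids (-0.32 and -0.36, adjusted p = 0.088 and 0.051).

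Vim fell by 1.11 (SE 0.04) and 0.82 (SE 0.04) in wild-type and Hox-/- Activin A gastruloids and rose by 0.46 (SE 0.06) in Chiron ones, opposite to Fn1 in the latter. Zeb2 fell by 1.02 (SE 0.10) in Chiron gastruloids. In wild-type Activin A gastruloids it was not called (0.04, and -0.33 with a call under the offsets), and in Hox-/- ones it rose by 0.29, a call lost without Hox-/- 120 h replicate 1 (0.17, adjusted p = 0.084) and reversed to -0.10 under the offsets. Cdh2 was called lower in Chiron gastruloids (-0.22, SE 0.06, adjusted p = 0.0021) although its libraries overlapped. That call was lost without Chiron 96 h replicate 1 (-0.10) or 120 h replicate 2 (-0.15). It was also lost with total counts alone (-0.11, adjusted p = 0.082) and with the offsets (-0.12, adjusted p = 0.052). Neither limma fit on log FPKM called it (-0.20 in each, adjusted p = 0.13 and 0.076).

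The change with time differed between the genotypes for 9 of the 10 genes by the interaction term, 6 positive and 3 negative, against 18.7% and 20.2% of all genes (38.9% together). Cdh1 (-3.52, SE 0.09, adjusted p = 1.1e-33), Epcam (-3.22, SE 0.11) and Snai2 (-3.11, SE 0.45, or -1.42 on log2(FPKM + 1)) were more negative in Hox-/-. Snai1 (1.48, SE 0.10), Twist1 (1.19, SE 0.13), Fn1 (1.17, SE 0.06), Cdh2 (0.84, SE 0.06), Zeb1 (0.81, SE 0.13) and Vim (0.29, SE 0.06) were more positive. Zeb2 was not called (0.24, SE 0.11, adjusted p = 0.070), and was called without wild-type 96 h replicate 2, Hox-/- 96 h replicate 2 or Hox-/- 120 h replicate 2 (0.28 to 0.36).

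Activin A gastruloids had more Cdh1 and Epcam than Chiron gastruloids of wild type at both times. At 96 h, Cdh1 was 4.25-fold (2.09, SE 0.06, adjusted p = 1.8e-19) and Epcam 3.95-fold (1.98, SE 0.06) higher with Activin A, as was Vim (1.54, SE 0.05). Fn1 (-1.23, SE 0.06), Snai1 (-1.20, SE 0.06), Zeb1 (-1.78, SE 0.10), Zeb2 (-1.08, SE 0.08) and Snai2 (-0.94, SE 0.30) were lower. This made 3 genes higher and 5 lower against 31.3% and 30.2% of all genes (61.6% together, median -0.50, all genes 0.00). Cdh2 (-0.07) and Twist1 (0.13) were not called. Without Chiron 96 h replicate 1 Twist1 was called at 0.47, without replicate 2 Cdh2 was called at -0.12, and the Snai2 call was lost without Activin A wild-type 96 h replicate 1 (-0.71, adjusted p = 0.098).

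At 120 h Cdh1 was 6.15-fold (2.62, SE 0.08, adjusted p = 8.4e-18) and Epcam 6.08-fold (2.60, SE 0.10) higher with Activin A in wild type. Fn1 (0.99, SE 0.06) and Snai1 (0.42, SE 0.10, or 0.24 with the offsets) were higher and Cdh2 was lower (-0.69, SE 0.06). That was 4 higher and 1 lower against 20.3% and 21.6% of all genes (41.9% together, median 0.06, all genes -0.01). Snai2 (0.09, SE 0.25), Zeb1 (-0.09, SE 0.11), Zeb2 (-0.04, SE 0.12), Twist1 (0.04, SE 0.14) and Vim (-0.05, SE 0.06) were not called. The effect of treatment differed between the times for 9 of the 10 genes, 7 positive and 2 negative, against 21.7% and 18% of all genes (39.6% together), most for Fn1 (2.23, SE 0.09), Zeb1 (1.68, SE 0.15), Snai1 (1.61, SE 0.11) and Vim (-1.58, SE 0.08). Snai2 was among them (1.03, SE 0.39, adjusted p = 0.038), a call lost without any of Chiron 120 h replicates 1 and 2, Chiron 96 h replicate 2, Activin A wild-type 96 h replicate 1 or 120 h replicate 2 (adjusted p of 0.050 to 0.22). Twist1 was not called (-0.10, SE 0.19), and was called without Chiron 96 h replicate 1 (-0.42, adjusted p = 0.023). For this treatment by time term Snai2 was also not called by DESeq2 (1.02, adjusted p = 0.15). Neither limma fit called it, on log2(FPKM + 1) (0.34, adjusted p = 0.36) or log2(FPKM + 0.1) (0.78, adjusted p = 0.12). Cdh1 (0.53, SE 0.10) was not called by limma on log2(FPKM + 1) (0.35, adjusted p = 0.082). The wild-type Activin A libraries serve in the genotype, time and treatment comparisons alike, so these are not independent of each other.

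At the same time the Activin A and Chiron gastruloids of wild type held different sums of cell-state markers. The endoderm markers summed to 406 to 459 against 122 to 161 CPM at 96 h and to 424 to 437 against 71.2 to 71.4 CPM at 120 h. The paraxial mesoderm markers summed to 121 to 130 against 614 to 736 CPM at 96 h and to 498 to 502 against 845 to 895 CPM at 120 h. The pluripotency markers summed to 975 to 994 against 179.7 to 231 CPM at 96 h and to 84.7 to 87.2 against 175 to 189 CPM at 120 h. The primitive streak and caudal markers summed to 2618 to 2727 against 908 to 1049 CPM at 96 h and to 398 against 275 to 309 CPM at 120 h. The part of these differences in the levels of Cdh1 and Epcam was not tested.

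Other genes of the pathway were taken as 4 lists with 77 genes beyond the 10. Their counts stand beside shares of all genes tested, higher and lower, of 12.4% and 10.8% in mES cells, 23.1% and 23.1% in endoderm, 22.2% and 16.7% in Activin A gastruloids at 96 h and 24.9% and 25.5% at 120 h between the genotypes. The shares were 31.3% and 30.2% at 96 h and 20.3% and 21.6% at 120 h between the treatments, and 18.7% and 20.2% for the genotype by time term. Of 22 epithelial genes (regulators, desmosome and polarity), 20 were tested in Activin A gastruloids. In Hox-/- at 120 h 15 were lower and 2 higher (25.5% and 24.9% of all genes), with a median of -2.06 (all genes -0.02). The RNA splicing regulator Esrp1 (-3.52, SE 0.15), which shapes epithelial isoforms, went from 33.7 to 36.6 CPM in wild type to 2.71 to 2.93 CPM in Hox-/-. Spint2, a protease inhibitor of epithelia, was lower by -2.40 (SE 0.08), and the desmosomal cadherin gene Dsc2 (0.74, SE 0.08) and the polarity kinase gene Prkci (0.36, SE 0.06) were the 2 that were higher. At 96 h 12 were lower and 2 higher (median -0.30, all genes 0.03), led by the desmosomal genes Dsg2 (-1.27, SE 0.07) and Dsp (-0.76, SE 0.06). In Hox-/- endoderm 16 of 20 were lower and 1 higher (median -0.77, all genes 0.00), with Spint2 at -0.77 (SE 0.05) and the apical polarity gene Crb3 at -1.67 (SE 0.12). In mES cells 5 of 19 were lower and 3 higher (median -0.11). In wild type, Activin A against Chiron had 15 of 20 higher and 2 lower at 96 h (median 0.87) and 14 higher and 2 lower at 120 h (median 1.62), with Esrp1 at 2.37 and 2.76. The genotype by time term was negative for 12 of the 20 and positive for 1 (median -1.12, all genes -0.06).

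**Figure D5:**
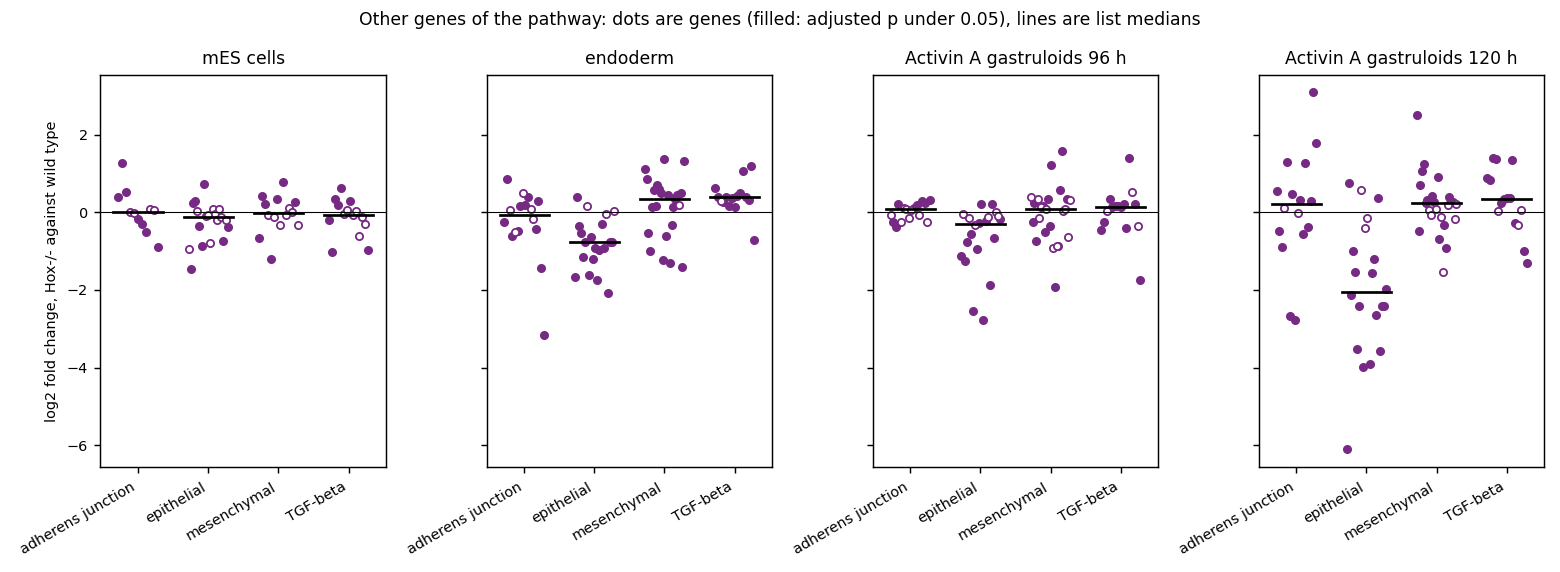
Log2 fold change, Hox-/- against wild type, of the genes in the 4 pathway lists (1 dot per gene, filled for an adjusted p under 0.05, lines for list medians) in mES cells, endoderm and Activin A gastruloids at 96 h and 120 h. The epithelial list has the lowest median in each of the 4 panels, from -0.11 in mES cells to -2.06 at 120 h.

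Of 25 genes listed as mesenchymal factors and matrix, 24 were tested in Activin A gastruloids. At 120 h 12 were higher and 4 lower in Hox-/- (24.9% and 25.5% of all genes), with a median of 0.23 (all genes -0.02). The mesoderm forkhead gene Foxc2 rose by 1.24 (SE 0.05), from 94.9 to 103 CPM in wild type to 212 to 218 CPM in Hox-/-, and the smooth muscle actin gene Acta2 rose by 2.51 (SE 0.11). Sparc, a matrix protein gene (-0.92, SE 0.06), and the mesenchymal cadherin gene Cdh11 (-0.49, SE 0.07) were lower. Foxc2 is also in the paraxial mesoderm list and Cdh11 in the cadherin list. In endoderm 15 of 23 were higher and 7 lower (median 0.34), with the growth factor receptor genes Pdgfrb at 1.37 (SE 0.07) and Pdgfra at -1.22 (SE 0.07). At 96 h 7 of 24 were higher and 6 lower (median 0.08), near the shares of all genes of 22.2% and 16.7%, and in mES cells 5 of 14 were higher and 2 lower (median -0.02). The list had its largest medians between endoderm cultures and mES cells. Only 14 of its genes passed the filter on low counts in the mES libraries alone, against 24 in the joint fit. Genes that passed only through the endoderm libraries, where they are high, could hardly be called lower. The counts and medians that follow are therefore a description. In wild type all 24 tested were higher in endoderm cultures than in mES cells, against 41.6% of all genes (median 2.93, or 2.80 with the 5 genes at the floor of 3 counts in mES cells set to their lower bound), and in Hox-/- 23 of 24, against 42.7% (median 3.41, or 2.71 with 6 such genes so treated). Tagln, which encodes an actin-binding protein of smooth muscle, had fitted changes of 9.87 in wild type and 11.43 in Hox-/-, and Cdh11 was at least 422-fold higher in wild-type endoderm than the floor over the mES libraries.

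Among 16 adherens junction genes and other cadherins, 8 were higher and 6 lower in Hox-/- Activin A gastruloids at 120 h (24.9% and 25.5% of all genes), with a median of 0.20. The protocadherin gene Pcdh19, active in forming somites, went from 38.3 to 42.2 CPM in wild type to 307 to 325 CPM in Hox-/- (3.09, SE 0.06, adjusted p = 3.2e-41), and its relative Pcdh8 rose by 1.79 (SE 0.06). Cdh6, a type II cadherin gene, fell by 2.66 (SE 0.16), from 22.4 to 23.2 CPM to 3.10 to 3.55 CPM, and the plakoglobin gene Jup by 0.56 (SE 0.08). At 96 h 6 were higher and 2 lower (median 0.07), in endoderm 5 higher and 6 lower (median -0.06), and in mES cells 3 higher and 4 lower of 11 (median 0.01), where P-cadherin, encoded by Cdh3, rose by 1.26 (SE 0.12).

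TGF-beta signals are a classical inducer of the transition. Of 15 genes for their ligands, receptors and mediators, 13 were higher and 1 lower in Hox-/- endoderm, against 23.1% of all genes in each direction (median 0.38, all genes 0.00). The ligand gene Tgfb2 rose by 1.06 (SE 0.05) and the receptor gene Tgfbr2 by 1.20 (SE 0.09), and the co-receptor gene Tgfbr3 fell by 0.72 (SE 0.13). In Activin A gastruloids at 120 h 9 were higher and 3 lower in Hox-/- (24.9% and 25.5% of all genes), and a median of 0.33, with the Smad co-repressor gene Ski at 1.37 (SE 0.04), the chromatin factor gene Hmga2 at 0.83 (SE 0.04), Tgfbr3 at -1.32 (SE 0.15) and Tgfbr2 at -1.01 (SE 0.19). Tgfbr2 thus had opposite signs in the endoderm cultures and in the gastruloids. At 96 h 8 were higher and 4 lower (median 0.13), Tgfb2 by 1.39 (SE 0.09), and in mES cells 4 were higher and 3 lower of 14 (median -0.07).

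As a description, Pearson's r of log2(CPM + 1) over the 10 group means was computed between Cdh1, Cdh2 and Vim and 9950 genes with a mean of at least 10 CPM. The points share the step from mES cells to differentiated cultures, and no test was made. Cdh1 was most like Spryd3 (r = 0.97), Pced1b (0.97), Stx3 (0.95) and Vat1 (0.94) and least like Notch1 (-0.96) and Heyl (-0.94). Its r with Epcam was 0.58 and with Cdh2 -0.56. Cdh2 was most like Fndc3c1, Yaf2, Zfp703 and Mapkapk2 (r of 0.99 to 1.00) and least like Laptm5 and Myh7b (both -0.99). Zeb2 ranked 29th by likeness to Cdh2 (r = 0.99), whereas Snai1 and Twist1 ranked 782nd and 813th (both r = 0.91). Vim was most like Vasp (0.97), Dstn (0.95), Ccdc47 (0.95) and Hunk (0.95) and least like Ogg1 and Tsr2 (both -0.97). It had a positive r with Cdh1 (0.49) and Fn1 (0.64) and a negative r with Cdh2 (-0.21) and Twist1 (-0.10).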

How the data were processed

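Poly-A RNA was sequenced from stranded TruSeq libraries, per the labels' protocols. The submitters' processing notes name cutadapt 1.16, STAR, Cufflinks 2.2.1 and the mm10 build. The authors deposited whole-number counts per gene and, in separate tables, FPKM values per gene, and the files of both kinds were joined by gene ID. The gene counter and whether it used strand are not given in the sources used here.

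Counts were tested with edgeR 4.0.16 (R 4.3.3), after filterByExpr with a minimum count of 10 and TMM scaling, with 1 coefficient per group, the quasi-likelihood test and Benjamini-Hochberg adjustment over all genes tested, calling an adjusted p under 0.05. The mES, endoderm and Activin A tables were fitted separately, wild-type gastruloids of both treatments together, and mES cells with endoderm cultures. CPM were computed from the counts with total counts. The script was tested on simulated counts with known changes. A floor is 3 counts in a library and covers counting error only. Alternatives were RLE or total-count scaling, other low-count filters, DESeq2 1.42.0, limma 3.58.1 on log2(FPKM + 1) and log2(FPKM + 0.1), fits on the compared groups alone, a replicate block, each library left out and, chosen after seeing the data, offsets for GC content and length. FPKM were used to compare levels between genes. The FPKM of Zeb2 in mES cells (at most 0.525) did not follow its counts and entered only the summed FPKM of the 5 transcription factor genes.

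The genes and lists were chosen with earlier results of these data known. Per pathway list and comparison, up to 2 called genes per direction with the smallest p could be named, and for likeness the 4 genes with the highest and 2 with the lowest r. Coordinates and sequences of Cdh2 and Zeb1 are not reported here. Promoter sequences of Cdh1, Snai2 and Fn1 were not used here. Python 3.11.15 computed the other values.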

Additional observations from a re-analysis of the deposited data

Results flagged for a closer look

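In gastruloids given Activin A, the effect of genotype at 120 h was not that at 96 h by the interaction term (edgeR's quasi-likelihood test, adjusted p under 0.05) for Cdh1 (-3.52), Epcam (-3.22), Snai2 (-3.11), Snai1 (1.48), Twist1 (1.19), Fn1 (1.17), Cdh2 (0.84), Zeb1 (0.81) and Vim (0.29), as log2 differences of the effect at 120 h minus that at 96 h.

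The effect of Activin A against Chiron in wild type differed between 120 h and 96 h for Fn1 (2.23), Zeb1 (1.68), Snai1 (1.61), Zeb2 (1.04), Snai2 (1.03), Epcam (0.62), Cdh1 (0.53), Cdh2 (-0.62) and Vim (-1.58). The Snai2 and Cdh1 calls depended on the processing, as given above. Depth differed between the times, and its part in these differences was not tested.

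The genotype effect differed between endoderm cultures and mES cells for Twist1 (1.499), Snai1 (1.27), Cdh2 (0.77), Zeb1 (0.77), Vim (0.57), Epcam (-0.49) and Cdh1 (-0.68).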

How the results depend on the processing

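Of 2006 log2 fold changes of the 10 genes recomputed under an alternative, 1889 kept their direction and side of the threshold, 59 lost and 29 gained a call, and 29 changed sign. In mES cells 4 genes were called between the genotypes, against 2 by DESeq2, 0 by limma with FPKM + 1 and 1 with FPKM + 0.1. Without each library in turn the numbers called were 3 to 5 for genotype in mES cells, 7 to 10 in endoderm, 5 to 7 at 96 h and 10 at 120 h. They were 7 to 9 and 5 for treatment at 96 h and 120 h, and 9, 7 to 8 and 8 to 10 for time in wild-type Activin A, Hox-/- Activin A and Chiron gastruloids. They were 9 to 10 and 9 for culture in wild type and Hox-/-, and 9 to 10, 8 to 10 and 6 to 7 for the genotype by time, treatment by time and genotype by culture terms.

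With GC and length offsets the sign changed for Epcam between genotypes at 96 h (0.033), for Cdh2 (0.096) between treatments at 96 h, for Zeb2 (0.16), Twist1 (-0.13) and Vim (0.045) between treatments at 120 h, and with time for Zeb2 (-0.33) and Fn1 (-0.28) in wild-type and Cdh2 (-0.22) and Zeb2 (-0.10) in Hox-/- Activin A gastruloids. Total counts alone gave 0.015 for Zeb2 and 0.0062 for Vim between treatments at 120 h. The log2(FPKM + 1) and log2(FPKM + 0.1) fits gave 0.066 and 0.079 there for Zeb2, and -0.13 and -0.16 with time in wild type, where no filter gave -0.020. A minimum of 10 counts in every library gave -0.017 for Cdh2 with time in Hox-/-. Leaving out a library changed the sign of these values, given as their lowest and highest. Between treatments they were -0.12 and 0.050 for Cdh2 and -0.14 and 0.47 for Twist1 at 96 h, and -0.24 and 0.36 for Snai2 at 120 h. With time they were -0.019 and 0.093 for Zeb2 in wild type and -0.0030 and 0.041 for Cdh2 in Hox-/-. They were -0.42 and 0.20 for Twist1 in the treatment by time term, and -1.95 and 0.44 for Zeb2 and -0.11 and 0.042 for Fn1 in the genotype by culture term. The cause was not tested.

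The count over all genes moved most in mES cells, from 3168 to 1098 (DESeq2), 23 and 372 (FPKM), 1477 and 1690 (without wild-type replicates 1 and 2). It went from 6922 to 4469 (log2(FPKM + 1)) in endoderm, from 6546 to 3647 (DESeq2), 2665 and 2787 (FPKM) at 96 h, from 10655 to 6670 (log2(FPKM + 0.1)) between treatments at 96 h, and from 6544 to 4193 and 4264 (FPKM) for genotype by time. Replicate numbers did not pair the libraries (same-number correlations of -0.084 to 0.119), and with the replicate block Cdh2 in mES cells (adjusted p = 0.041) and Vim in endoderm (adjusted p = 0.025) were called, with no other call of the 10 genes changed by the block. Snai2, and Zeb2 and Twist1 in mES cells, are limited by depth. FPKM fits were not run across the mES and endoderm tables, whose FPKM may have been scaled separately. The same limit would hold for FPKM levels and sums compared between kinds of culture above.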
